A study of Mus musculus with 4 samples.

Results

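The genes described here are 36 genes of skeletal muscle: proteins of the sarcomere, of calcium release and of muscle energy supply, and the transcription factors that make muscle cells. They were taken by gene symbol from the deposited table of 24972 genes, and all 36 were found once each. All 36 also passed the filter on low values, a mean of at least 1 normalized count, which 17979 genes of the table passed. RNA was sequenced from the mandibular dental arch, the strip of lower jaw that holds the developing teeth, dissected from mice at embryonic day 17.5. The first group was Ascl5WTWT (wild type, libraries 15 and 20) and the other Ascl5MutMut (mutant, libraries 18 and 14), labelled as mutant at both copies of Ascl5, a transcription factor gene of the basic helix-loop-helix family. The numbers are read here as sample codes, since the labels give 1 embryonic day for all 4. The labels used here do not give strain, sex, what the variant does to the protein, or whether a library is 1 embryo. A p-value therefore reaches no further than these 4 libraries, and part of their spread may be technical.

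A skeletal muscle fibre is filled with sarcomeres, in which thick filaments of myosin pull on thin filaments of actin. Calcium, let out of the sarcoplasmic reticulum after a nerve signal, binds troponin and opens the thin filament to myosin. Fibres of the embryo use developmental myosins that are later replaced by adult fast and slow ones, and the muscles that move the lower jaw and tongue attach to, or lie beside, the mandible. The myogenic factors Myf5, Myod1, Myog and Myf6 are themselves basic helix-loop-helix proteins, which bind the E-box CANNTG.

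Of the 36 genes, 28 had an entry among the RefSeq promoters (GRCm38.p6, the assembly that mm10 denotes). The windows of 250 bases before the start of 4 genes are shown because these genes carry the results below: the 2 developmental myosins, the main skeletal actin, and the regulator of muscle differentiation. Capitals mark every E-box (CANNTG), CArG box (CCWWWWWWGG) and MEF2 site (YTAWWWWTAR) that was found, searched on both strands. W stands for A or T, Y for C or T, and R for A or G. Only exact matches were marked, so a site with other letters is missed.
Myh3, chr11:67078050-67078299, plus strand: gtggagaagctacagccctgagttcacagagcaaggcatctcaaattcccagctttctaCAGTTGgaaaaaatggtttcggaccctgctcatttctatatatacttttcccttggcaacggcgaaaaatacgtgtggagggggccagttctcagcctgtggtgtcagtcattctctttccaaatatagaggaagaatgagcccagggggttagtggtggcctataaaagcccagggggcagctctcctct
Myh8, chr11:67276874-67277123, plus strand: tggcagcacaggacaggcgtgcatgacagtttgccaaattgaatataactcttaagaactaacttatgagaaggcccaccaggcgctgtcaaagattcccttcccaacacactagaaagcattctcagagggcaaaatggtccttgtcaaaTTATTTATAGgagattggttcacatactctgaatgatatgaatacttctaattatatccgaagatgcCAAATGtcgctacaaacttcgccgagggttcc
Acta1, chr8:123894776-123895025, minus strand: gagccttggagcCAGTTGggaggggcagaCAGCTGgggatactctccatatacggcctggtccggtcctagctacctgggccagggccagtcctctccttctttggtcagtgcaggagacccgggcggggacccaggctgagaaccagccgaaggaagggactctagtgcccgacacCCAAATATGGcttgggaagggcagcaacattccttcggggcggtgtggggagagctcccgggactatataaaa
Myog, chr1:134289754-134290003, plus strand: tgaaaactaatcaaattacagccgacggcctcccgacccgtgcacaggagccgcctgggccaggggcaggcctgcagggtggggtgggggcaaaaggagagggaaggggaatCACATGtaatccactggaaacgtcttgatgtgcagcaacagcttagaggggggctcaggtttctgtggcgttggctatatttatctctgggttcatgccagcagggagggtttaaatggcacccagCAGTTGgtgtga
Myh3 held 1 E-box. Myh8 held 1 E-box and 1 MEF2 site. Acta1 held 2 E-boxes and 1 CArG box, the site of serum response factor, and Myog held 2 E-boxes. The Myog window also holds ctatatttat, which departs from the MEF2 pattern in its last base only and was not marked. Any E-box was found in 21 of the 28 muscle genes and in 66.2% of all 32851 promoters. The E-box CAGCTG, which is contained in CANNTG, was found in 11 of the 28 and in 13.0% of all promoters. A CArG box was found in 3 of the 28 (Acta1, Actc1 and Myh4) against 1.47% of all, and a MEF2 site in 5 of the 28 (Myh1, Myh4, Myh8, Ttn and Pvalb) against 2.92% of all. A muscle gene counted if any of its promoter entries held the site, while the percentages are of single promoter entries. These shares are therefore not the same measure. A match describes the letters in this window only.

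No muscle gene passed the test of genotype. In a limma fit over 17979 genes on log2(value + 0.5), 0 of the 36 had an adjusted p under 0.05, where 0.0111% of all genes did, and their lowest adjusted p was 0.9999. At an unadjusted p under 0.05 there was 1 muscle gene, Tnnc1, where 4.27% of all genes were under it. The median log2 fold change, mutant minus wild type, was 0.034 over the muscle genes and 0.0025 over all genes tested. It was higher than 0 in 22 muscle genes and lower in 14, with a range from -0.37 to 0.32. The median turned to -0.30 without mutant 18 and to 0.36 without mutant 14. Both mutant libraries lay above both wild-type libraries in 6 muscle genes, where 13.4% of all genes did so, and the genotypes failed to overlap in either direction in 7, where 27.4% of all genes did. The seventh was Myh7, with both mutant libraries below. With 2 libraries per genotype, an exact two-sided permutation test of 1 value cannot go under p = 0.33.

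**Figure D1:**
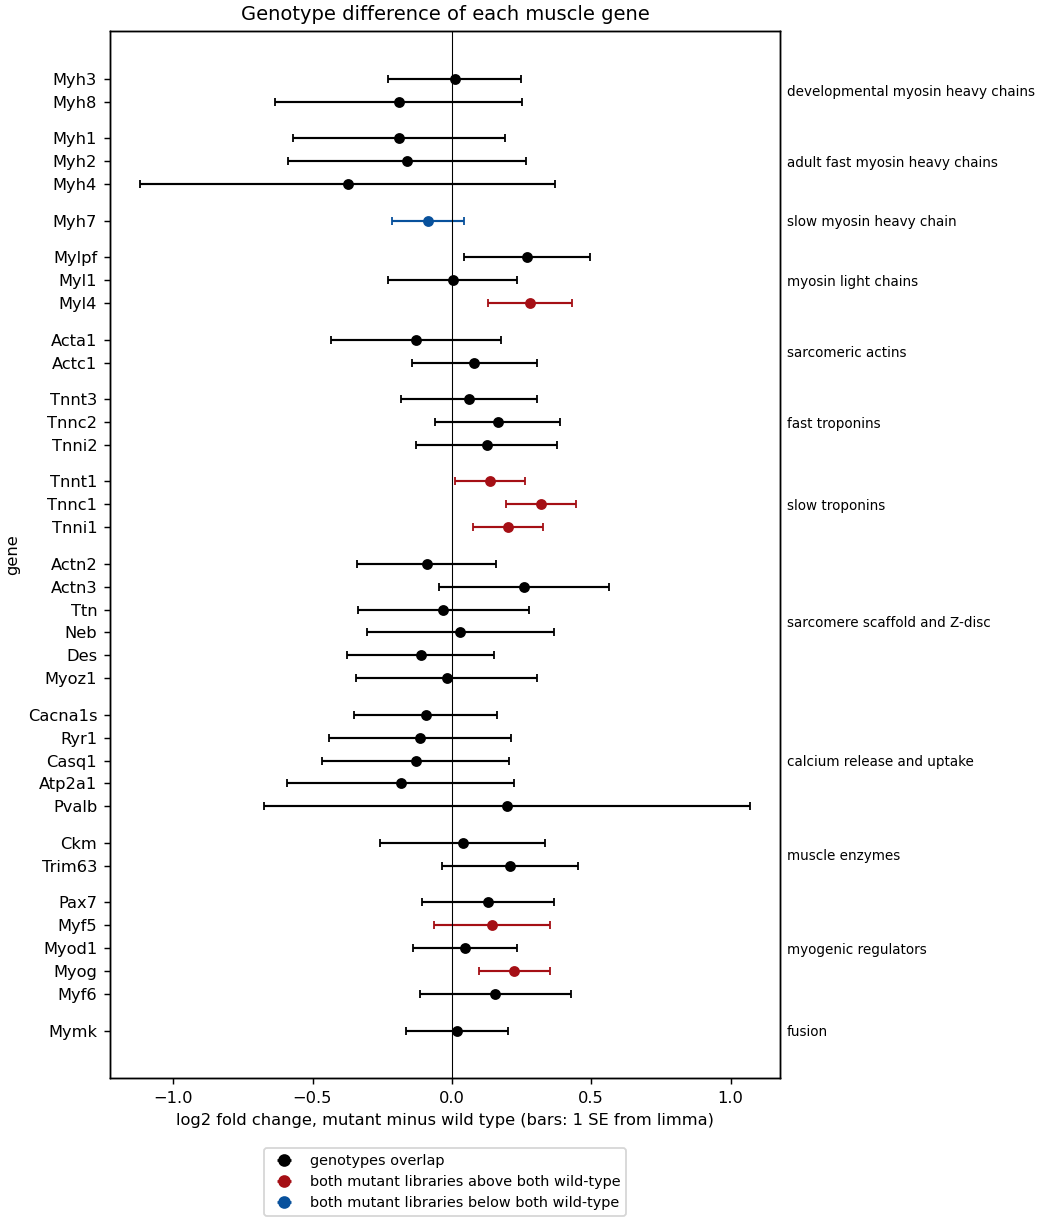
Log2 fold change of each of the 36 muscle genes (x axis, mutant minus wild type, from limma on log2(value + 0.5); bars are 1 SE, 2 libraries per genotype), grouped by role. Red points are the 6 genes with both mutant libraries above both wild-type libraries, and the blue point is Myh7, with both below; no gene passed an adjusted p of 0.05.

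In most of these genes the 2 mutant libraries differed from each other by more than the genotype means did. In normalized counts, the 36 genes summed to 269408 (wild type 15), 216134 (wild type 20), 316684 (mutant 18) and 184257 (mutant 14). These sums are 1.21%, 0.957%, 1.41% and 0.832% of each library in the same order, wild type 15, wild type 20, mutant 18 and mutant 14, in which all values below are given unless said otherwise. The mutant libraries were thus the highest and the lowest of the 4, with both wild-type libraries between them, and the mutant mean was 1.03 times the wild-type mean (exact two-sided permutation test, p = 1). Mutant 18 was the highest library for 30 of the 36 genes, where it was the highest for 23.2% of all genes. Mutant 14 was the lowest for 24 of the 36, where it was the lowest for 23.1% of all genes. Mutant 18 exceeded mutant 14 in 35 of the 36 genes and wild type 15 exceeded wild type 20 in 27. Over all 36, the median ratio of mutant 18 to mutant 14 was 1.62 and that of wild type 15 to wild type 20 was 1.12. The medians of the same ratios over all genes tested were 0.982 and 1.005. The mutant libraries differed by more than the genotype means in 30 of the 36 genes, and the wild-type libraries did so in 19. The same counts were not made over all genes, so neither shows an excess. These genes also vary together, so the counts are not of separate observations. In bulk RNA, fewer muscle cells and less RNA per muscle cell cannot be told apart.

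**Figure D2:**
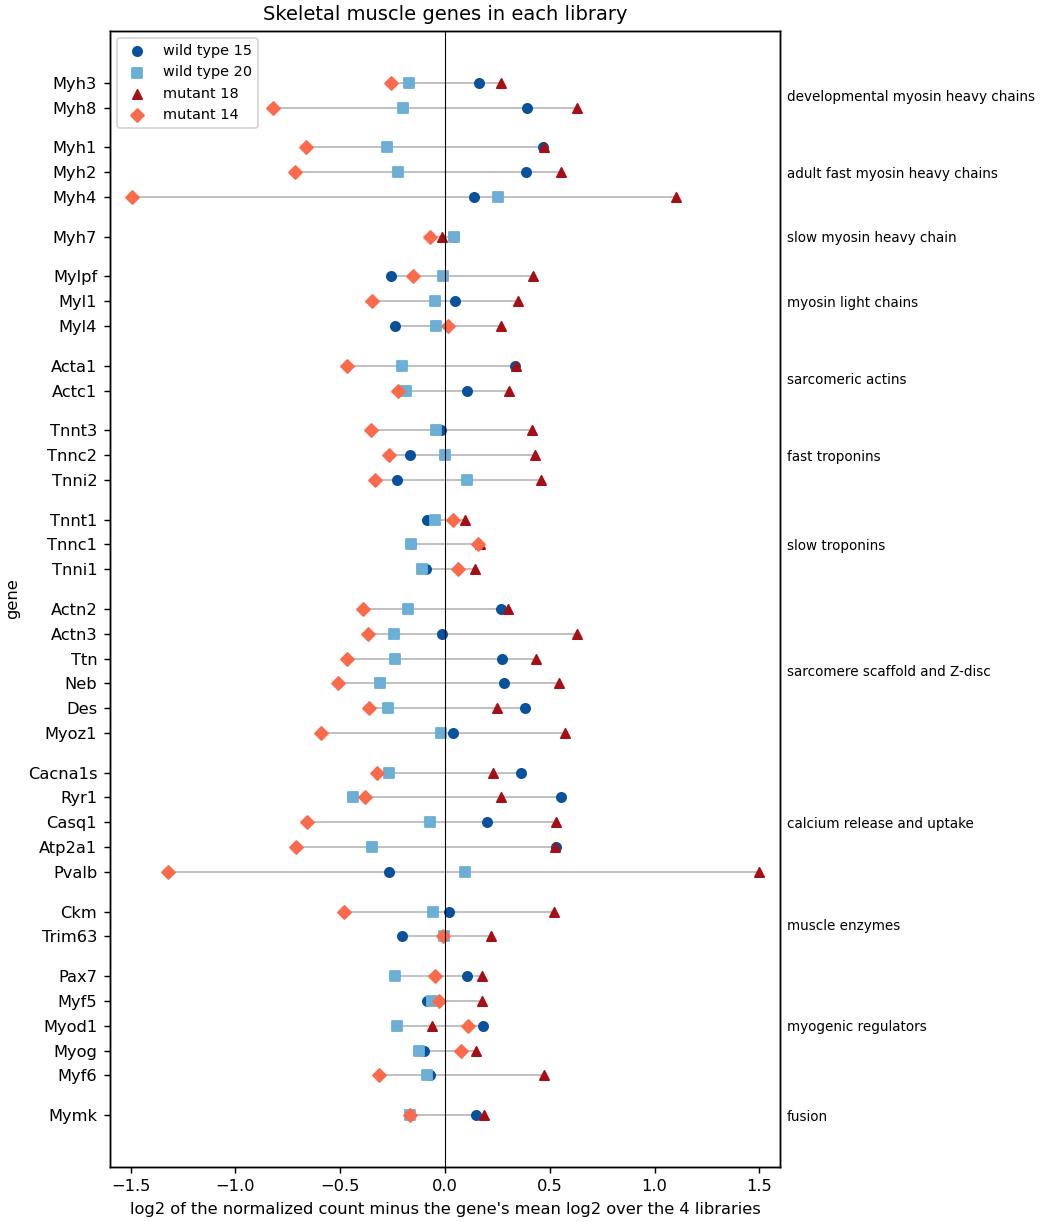
Level of each muscle gene in each of the 4 libraries (x axis, log2 of the normalized count minus the gene's mean log2 over the 4 libraries; 1 point per library, grouped by role). Mutant 18 (dark red triangles) is highest for 30 genes and mutant 14 (light red diamonds) lowest for 24, with spans from 1.08 times for Myh7 to 7.05 times for Pvalb.

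Other tissue in the dissected piece also differed between libraries. Markers of tooth, bone, keratinocytes, smooth muscle and tendon were present in all 4 libraries. The 6 keratinocyte markers summed to 87393, 87180, 139921 and 204324, higher in both mutant libraries. In 4 of the 6 both mutant libraries lay above both wild-type ones, where 13.4% of all genes did so. Krt5 (11251, 19312, 18755 and 22390) and Krt14 overlapped between genotypes. The 6 salivary gland markers summed to 20.7, 4.98, 44.9 and 5961, far higher in mutant 14 than in any other library. The 6 tooth markers were highest in wild type 20 and mutant 18 (7240 and 7430, against 2024 in wild type 15 and 2323 in mutant 14). The 6 bone markers all had a log2 fold change below 0, with a median of -0.53. In 4 of them, Sp7, Dmp1, Phospho1 and Runx2, both mutant libraries lay below both wild-type ones with an unadjusted p under 0.05, and 0 passed after adjustment (limma). Of all genes, 4.27% were under that unadjusted p, and the genotypes failed to overlap in either direction in 27.4%. Their sum, most of it Ibsp, was 97469, 109258, 104936 and 67777. The 6 erythroid markers were highest in wild type 15 and mutant 14 (259673, 112215, 108749 and 269534). Wild type 15 alone had abundant Xist, which coats the inactive X (38619, and at most 12.7 elsewhere). Ddx3y, a gene of the Y chromosome, was at 0, 2490, 3027 and 2382. By Xist and Ddx3y wild type 15 reads as female and the other libraries as male, so sex was not balanced between genotypes. The part of these differences in the muscle values was not tested.

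Developmental myosin heavy chains made up nearly all of the sarcomeric heavy chain message. Myh3, the embryonic form, was at 31629, 25028, 33995 and 23612 normalized counts. Myh8, the perinatal form, was at 45510, 30176, 53767 and 19612. For both genes mutant 18 was highest and mutant 14 lowest, and the genotypes overlapped. The log2 fold change was 0.010 (SE 0.24) for Myh3 and -0.19 (SE 0.44) for Myh8. Neither passed (limma, adjusted p = 0.9999 for each). Per kb of transcript, Myh3 and Myh8 together were 97.5% and 97.1% of the 6 heavy chains in wild type and 97.8% and 96.8% in mutant, a mean of 97.3% ± 0.34 and 97.3% ± 0.75 (SD, n = 2; exact permutation test, two-sided, p = 1). The span of this share over the 4 libraries was from 96.8% to 97.8%.

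The balance between the 2 developmental forms moved with the library. Per kb, the ratio of Myh8 to Myh3 was 1.41, 1.18, 1.55 and 0.815. The ratio was lowest in mutant 14 and highest in mutant 18. Which form was the more abundant depended on the length used: with the union of all exons in place of the longest transcript, the ratio was 0.740, 0.620, 0.814 and 0.427, below 1 in all 4 libraries, again lowest in mutant 14 and highest in mutant 18. With the longest transcript, the Myh3 share of mutant 14 was 53.3%, against 40.5%, 44.5% and 38.3% in wild type 15, wild type 20 and mutant 18. The genotype means of the ratio, 1.30 ± 0.16 in wild type and 1.18 ± 0.52 in mutant (SD, n = 2), overlapped (exact permutation test, two-sided, p = 1). This ratio was chosen after its values were seen.

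Adult heavy chains were low. The fast forms Myh1 (IIx), Myh2 (IIa) and Myh4 (IIb) together were 0.740% to 0.925% of the 6 heavy chains per kb. Myh1 was at 538, 322, 541 and 246. Myh2 was at 157, 103, 176 and 73.2. Myh4 was at 34.6, 37.5, 67.6 and 11.2. Each of these 3 was highest in mutant 18 and lowest in mutant 14, a span of 2.20, 2.40 and 6.04 times for Myh1, Myh2 and Myh4, and the genotypes overlapped. The slow form Myh7 had a narrower span, at 1232, 1230, 1183 and 1137. It spanned 1.08 times, with both mutant libraries lower, and its log2 fold change was -0.086 (SE 0.13; limma, adjusted p = 0.9999). Ordered by mean level per kb of the longest transcript, the heavy chains ran Myh8, Myh3, Myh7, Myh1, Myh2 and Myh4. The ranges of Myh8 and Myh3 overlapped, while those of the others did not overlap with their neighbours. With the union of exons as length Myh3 (mean 4716 per kb) came before Myh8 (3166 per kb), the other places were the same, and the ranges of Myh2 and Myh4 overlapped too. Myh3, Myh2, Myh1, Myh4 and Myh8 lie along chromosome 11 (67078300 to 67308634 in GENCODE, GRCm38), and Myh7 lies on chromosome 14. Because the heavy chain genes are near-identical over long stretches, the authors' counting could split their reads, and low values of Myh1, Myh2 and Myh4 beside Myh3 and Myh8 are uncertain.

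**Figure D3:**
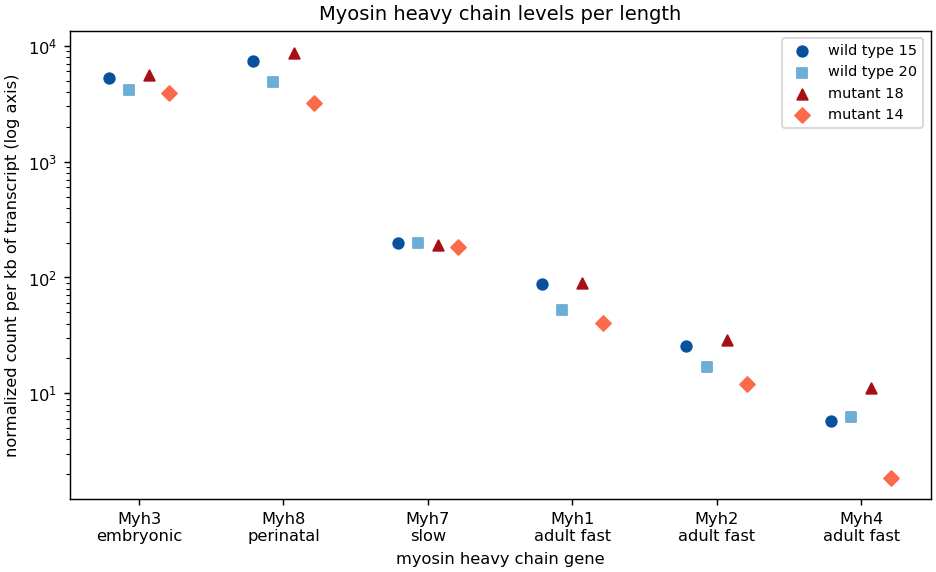
Level of the 6 sarcomeric myosin heavy chain genes per kb of their longest transcript (y axis, log scale; 1 point per library). Myh3 and Myh8 lie between 3189 and 8744 in all 4 libraries, Myh7 between 182 and 198, and the adult fast genes between 1.86 and 88.9.

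Of the myosin light chains, Mylpf, the fast regulatory chain, was at 16480, 19566, 26412 and 17732. Myl1, the fast essential chain, was at 12949, 12132, 15977 and 9865. Both overlapped between genotypes. Myl4, an embryonic essential chain also used in atrial heart muscle, was at 3707, 4244, 5255 and 4413. Both mutant values of Myl4 lay above both wild-type values, without passing (log2 fold change 0.28, SE 0.15; limma, adjusted p = 0.9999). The 8 heart markers summed to 5786, 6177, 7550 and 6783, of which Myl4 and Tnnt2 are also made by embryonic skeletal muscle. Of the other 6, Nppa was at 0 in every library and the rest were low and without a common direction. Myl7 was higher in both mutant libraries (5.23, 11.8, 22 and 23.4), Tnni3 (30.3, 33.5, 26.7 and 19.3) and Nppb (at most 2.94) were lower in both, and Myh6 and Ryr2 overlapped between genotypes. The part of heart RNA in Myl4 was not tested. The skeletal actin Acta1 was at 35647, 24584, 35856 and 20466, and the cardiac actin Actc1, which embryonic skeletal muscle also makes, at 22088, 18063, 25360 and 17574. Per kb, the ratio of Acta1 to Actc1 was 1.64, 1.39, 1.44 and 1.19, lowest in mutant 14 and overlapping between genotypes.

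Troponins of slow and fast fibres differed in how they varied. The slow genes Tnnt1 (tropomyosin binding), Tnnc1 (calcium binding) and Tnni1 (inhibitory) were higher in both mutant libraries than in both wild-type libraries. Tnnc1 was at 1439.3, 1439.1, 1803 and 1793, a log2 fold change of 0.32 (SE 0.13, unadjusted p = 0.0353, limma adjusted p = 0.9999). Tnni1 was at 2287, 2257, 2686 and 2539 (0.20, SE 0.13), and Tnnt1 at 2538, 2606, 2882 and 2769 (0.14, SE 0.13). None of the 3 passed. Leaving out any 1 library could not turn their sign, because the genotypes did not overlap. They spanned 1.14 to 1.25 times over the 4 libraries. The fast genes Tnnt3, Tnnc2 and Tnni2 instead followed the summed muscle level, highest in mutant 18 and lowest in mutant 14, with spans of 1.62 to 1.74 times and overlapping genotypes. Tnnt3 was at 10448, 10284, 14133 and 8279, Tnnc2 at 5602, 6291, 8466 and 5226, and Tnni2 at 3094, 3897, 4987 and 2873. Per kb, the ratio of Tnnt3 to Tnnt1 was 4.04, 3.87, 4.81 and 2.93, that of Tnnc2 to Tnnc1 was 4.01, 4.50, 4.84 and 3.0, and that of Tnni2 to Tnni1 was 3.25, 4.15, 4.47 and 2.72. All 3 ratios were highest in mutant 18 and lowest in mutant 14.

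The scaffold of the sarcomere kept the library order of the summed level, to which it belongs, except in Des. The 6 genes are Ttn (titin, the elastic filament), Neb (nebulin, the thin filament ruler), the crosslinkers Actn2 and Actn3, Des (desmin) and Myoz1 (myozenin). All 6 were lowest in mutant 14, 5 were highest in mutant 18 and Des was highest in wild type 15. Ttn was at 20760, 14579, 23277 and 12464. Neb was at 7218, 4781, 8649 and 4162, and Actn3, the fast fibre form, at 419, 357, 655 and 328. Actn2 was at 8167, 5993, 8338 and 5176, Des at 7621, 4843, 6943 and 4547, and Myoz1 at 1260, 1210, 1826 and 813. Their spans ran from 1.61 times for Actn2 to 2.25 times for Myoz1, and the genotypes overlapped for all 6.

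Genes of calcium handling held the widest span. Pvalb (parvalbumin), which buffers calcium in fast fibres, was low at 8.41, 10.8, 28.6 and 4.06, a span of 7.05 times. Atp2a1, the fast calcium pump, was at 6235, 3396, 6218 and 2638, and Casq1 (calsequestrin), the calcium store protein, at 2059, 1703, 2586 and 1133. The release channel Ryr1 was at 4126, 2076, 3379 and 2160, nearly 2 times as high in wild type 15 as in wild type 20 (1.99 times). Genotypes overlapped for all 5 genes of this group. Cacna1s, the voltage sensor that triggers release, was at 832, 538, 759 and 517. In RefSeq its gene (chromosome 1, 136052806 to 136119822, GRCm38) begins 1435 bases past the end of Ascl5 (136050804 to 136051370). Tnni1 and Myog lie 0.240 Mb and 1.76 Mb from Ascl5 on the same chromosome. Ascl5 itself was at 21.8, 37.3, 10.6 and 12.1. Of the enzymes, Ckm (muscle creatine kinase) was at 11122, 10548, 15756 and 7852, and Trim63, a ubiquitin ligase of muscle wasting, at 104, 119, 139 and 119, with overlapping genotypes for both.

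Regulators of muscle formation, except Myf6, varied less than the median muscle gene. Pax7, the marker of muscle stem cells, was at 168, 132, 176 and 151. Myf5 and Myod1, which commit cells to the lineage, were at 174, 177, 208 and 180 and at 583, 438, 492 and 555. Myog, which drives differentiation, was at 2068, 2039, 2463 and 2338. Both mutant values lay above both wild-type values for Myog (log2 fold change 0.22, SE 0.13) and Myf5 (0.15, SE 0.21), and neither passed (limma, adjusted p = 0.9999 for each). Without overlap, leaving out any 1 library could not turn the sign of either gene. Myf6, a factor of late differentiation, was at 251, 249, 366 and 212, and Mymk (myomaker), the membrane protein of myoblast fusion, at 856, 687, 878 and 688. Myf6 spanned 1.73 times, while Pax7, Myf5, Myod1, Myog and Mymk spanned 1.2 to 1.33 times. The mean log2 of the 5 regulators less that of 23 sarcomere genes was -3.30, -3.25, -3.43 and -2.88. Regulators were thus highest relative to the sarcomere in mutant 14 and lowest in mutant 18, and the genotypes overlapped (exact permutation test, two-sided, p = 1).

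To compare each gene with other muscle genes, each library was divided by the median ratio of 66 other muscle genes to their own means. The 66 are genes of the sarcomere, excitation-contraction coupling and energy metabolism. The ratio therefore holds both the amount of muscle RNA and its makeup, and this step cannot separate them. The ratio was 1.07, 0.910, 1.19 and 0.780. After this step 27 of the 36 genes had a narrower range over the libraries, and the median span went from 1.65 to 1.47 times. Myh3 then spanned 1.10 times (27516 to 30261), Myl1 1.10 times, Actc1 1.13 times and Actn2 1.16 times. The other 9 had a wider range: Myh7, Myl4, the 3 slow troponins, Trim63, Myf5, Myod1 and Myog. In all 9 of these, and in Myh3, Mylpf, Actc1, Pax7 and Mymk, mutant 14 was now the highest library. Division by the smallest ratio, 0.780, raises mutant 14 most, so a gene that was nearly flat before had to become highest there. Scaled Myog was at 1939, 2242, 2067 and 2996 and scaled Tnnc1 at 1349, 1582, 1513 and 2298. Mutant 14 remained the lowest library for 11 genes, Myh8, Myh1, Myh2, Myh4, Acta1, Ttn, Myoz1, Casq1, Atp2a1, Pvalb and Ckm. Scaled Myh8 was at 42665, 33176, 45124 and 25134. Relative to other muscle genes, the slow troponins, Myh7 and 4 of the 5 regulators were thus highest, and Myh8 and the 3 adult fast myosins lowest, in mutant 14, while in mutant 18 the same 4 myosins were the highest or next to the highest.

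**Figure D4:**
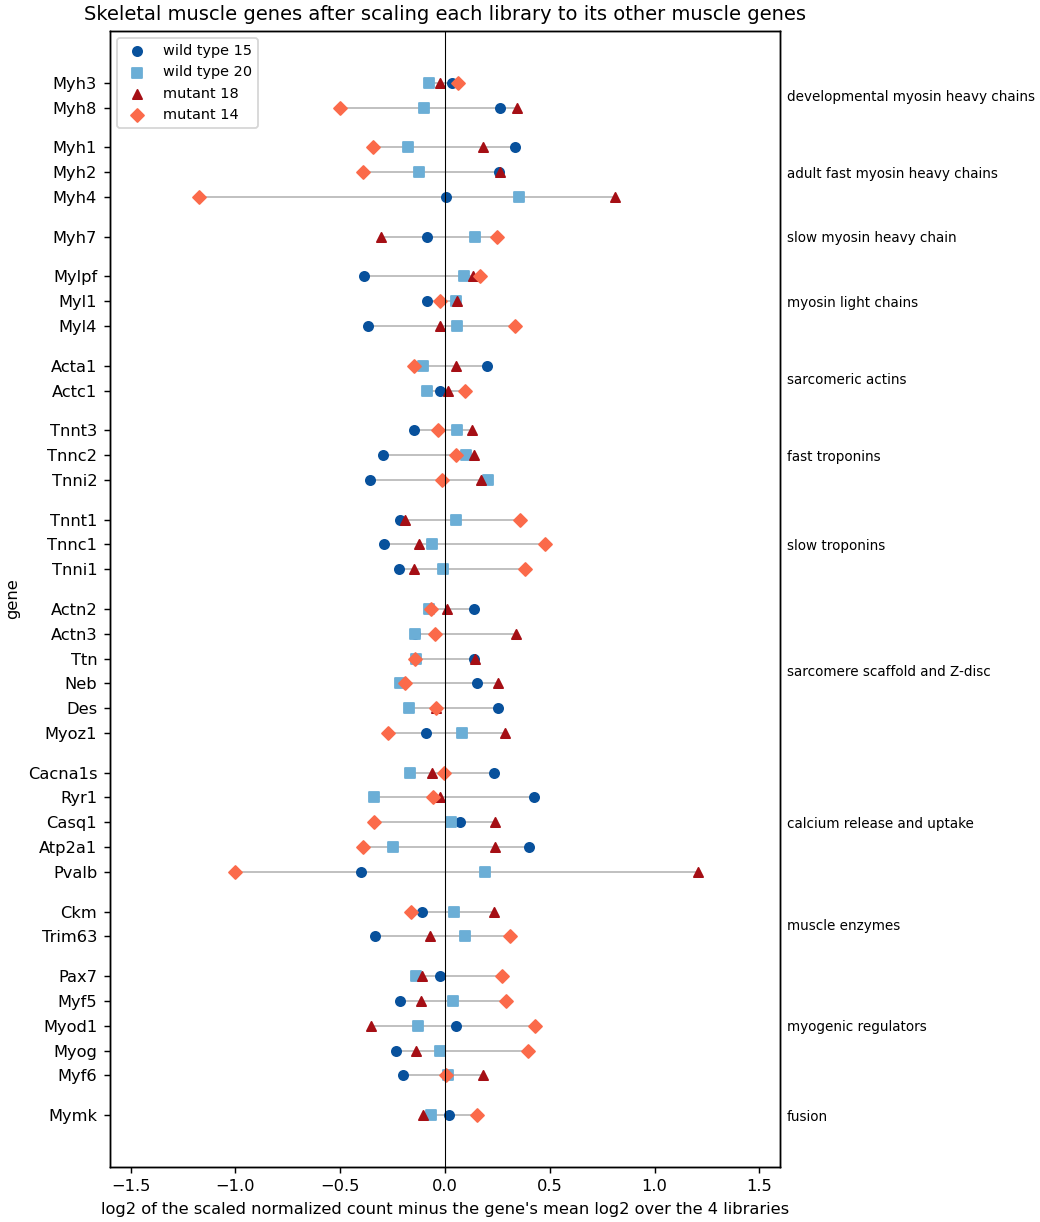
The same genes and libraries after each library was scaled to the median ratio of 66 other muscle genes (x axis, log2 of the scaled value minus the gene's mean log2; 1 point per library). Most ranges are narrower than without scaling, and mutant 14 (light red diamonds) is highest for 14 genes, among them the slow troponins and Myog, and lowest for 11, among them Myh8 and the adult fast myosins.

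Genotype gave no call on this scale either. In the limma fit on scaled values 0 of the 36 genes passed (lowest adjusted p = 0.999994), where 0.239% of 17982 genes did, and 0 had an unadjusted p under 0.05. The division was applied to all genes, muscle or not, and the moderated variances draw on all of them. The SE of Myh3 rose from 0.24 to 0.41 although its span narrowed from 1.44 to 1.10 times, while the SE of Myh4 fell from 0.74 to 0.64. The count of 0 on this scale therefore says little about genotype. Both mutant libraries lay above both wild-type libraries in 3 muscle genes, Mylpf, Actn3 and Actc1, where 6.93% of all genes did so. They lay below in 0, where 4.60% of all genes did so. The same division changed these shares of all genes, since 13.4% lay above before it. The 6 genes that did not overlap on the deposited scale in the higher direction, and Myh7 in the lower, all overlapped after scaling. The fold change had the same sign on both scales in 34 of the 36 genes.

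Muscle genes outside these 36 were also most often highest in mutant 18 and lowest in mutant 14. Over 8 further lists of 115 muscle genes, 0 passed the genotype test (limma) and 0 had an unadjusted p under 0.05. Their median log2 fold change was -0.0093, with 53 higher and 62 lower. Mutant 18 was the highest library for 67 of the 115 and mutant 14 the lowest for 64. Among 33 further sarcomere and Z-disc genes these counts were 25 and 20. Tpm1 (tropomyosin), among the most abundant of them per kb, was at 17127, 18387, 19864 and 13022. Among 16 genes of muscle energy metabolism mutant 14 was lowest for 15, with the enolase Eno3 at 5269, 5366, 7696 and 3570. Among 17 genes of excitation-contraction coupling mutant 14 was lowest for 11, and Casq2, the slow calsequestrin, was at 5238, 4744, 7081 and 3830. Among 17 further progenitor and fusion genes it was lowest for only 4, and their mean log2 level spanned from -0.083 to 0.13 around the gene means, against -0.35 to 0.39 for the 36 genes.

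**Figure D5:**
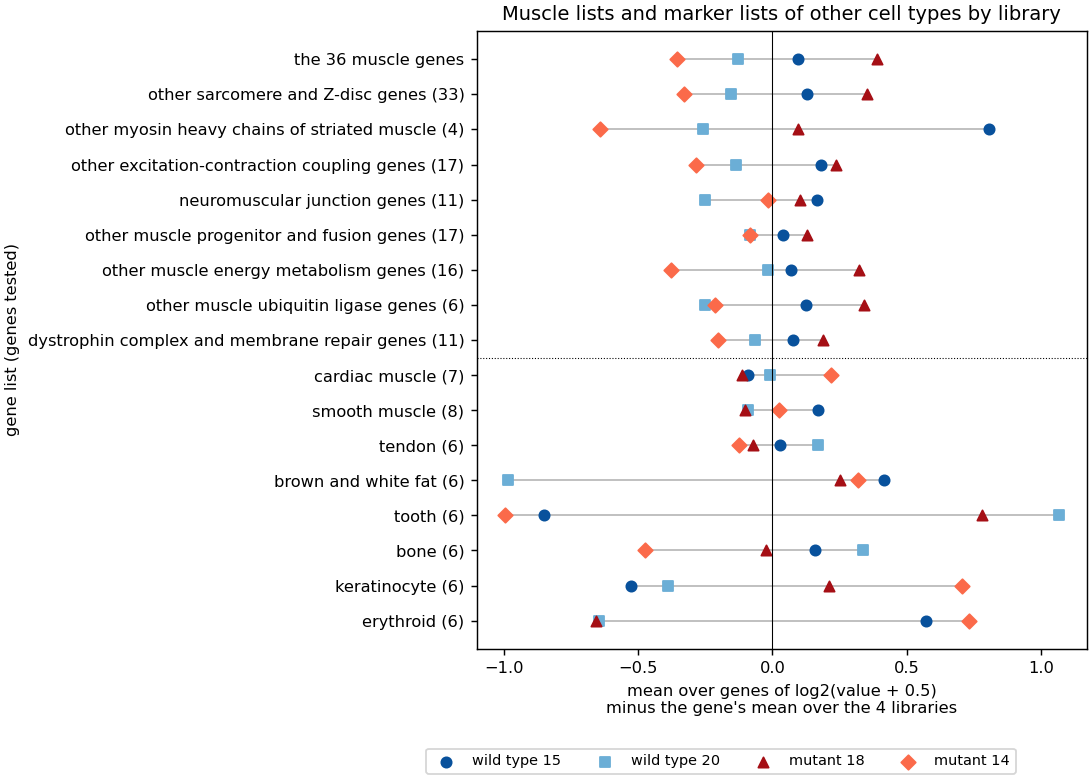
Mean level of the 36 muscle genes, of 8 further muscle lists (above the dotted line) and of marker lists of other cell types (below it) in each of the 4 libraries (x axis, mean over genes of log2(value + 0.5) minus the gene's mean; the number of genes is in brackets; the salivary gland list is left out because its range is off this scale). The 36 genes run from mutant 14 at -0.35 to mutant 18 at 0.39, and keratinocyte markers run from wild type 15 at -0.52 to mutant 14 at 0.71.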

How the data were processed

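RNA-seq of 4 libraries was analysed, 2 wild-type and 2 mutant. The authors deposited normalized counts (a signal with decimals, from the file's values), so no count model was used. DESeq2 and build mm10 were used, per the submitters' processing notes, with no version. How reads were aligned and counted, and with which strand setting, is not given in the sources used here, so antisense and near-identical genes are uncertain. Totals per library ran from 22134483 to 22578580. Whole reads were not recovered: 32.0% to 34.6% of values above 0 were whole multiples, within 0.1, of the commonest low value, so counting error per gene is unknown. The 2 libraries per genotype limit precision.

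Genes with a mean of at least 1 were transformed to log2(value + 0.5) and fitted with limma 3.58.1 in R 4.3.3 (trend, moderated variances, Benjamini-Hochberg over all genes, two-sided, threshold 0.05). Moderation draws the variance of each gene toward that of other genes. For a gene with close replicates, such as Tnnc1 (SE 0.13), the SE and p therefore rest largely on other genes. The fit was also run on simulated counts with the same dispersion for every gene, drawn independently. That does not test it for spread that many genes share, as these muscle genes do. Fold changes understate those of low genes. Lengths are the longest GENCODE vM21 transcript. Values of 1 library measure were compared by exact permutation. A second fit used values scaled to 66 other muscle genes with a mean of at least 50. Genes named by rule were the 36 and, from each other muscle list, the 3 most abundant per kb and the 2 of smallest p, of which only some are printed. Members and lists were chosen with earlier results of these data known. Replicate codes are not shared between genotypes, so nothing was paired. No 2 libraries held identical values above 0 in any gene tested.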

Additional observations from a re-analysis of the deposited data

How the results depend on the processing

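The count of 0 muscle genes called held under all 11 alternatives of pseudocount, filter, scaling, trend and library left out. At an unadjusted p under 0.05 there were 0 or 1 genes in each of the 7 alternatives that kept all 4 libraries, where 4.27% of all genes were under it in the main fit. Fits with a library left out are used below for effect sizes only. The count on the scale of other muscle genes was also 0 when the summed level of the scaling genes replaced their median ratio, with the limit of the scaled fit given above. Directions rested on single libraries, in fits with 1 residual degree of freedom. With 1 library left out, the median log2 fold change of the 36 genes ran from -0.30 to 0.36 and the log2 ratio of the summed level from -0.40 to 0.38, both lowest without mutant 18 and highest without mutant 14. The difference in developmental share ran from -0.53 to 0.52 percentage points, and was 0.089 with the union of exons as length against -0.0061 in the values reported. The difference of regulators relative to sarcomere ran from -0.16 to 0.39 and that of the Myh8 to Myh3 ratio, chosen after seeing the data, from -0.48 to 0.25.

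Of the 36 genes, 8 kept their direction with each library left out: Myh7, Myl4, Tnnt1, Tnnc1, Tnni1, Trim63, Myf5 and Myog. In these 8 except Trim63 the genotypes did not overlap, so no left-out library could turn the direction. The other 28 turned. The log2 fold change without mutant 18 and without mutant 14 was respectively -0.25 and 0.27 (Myh3), -0.92 and 0.54 (Myh8), -0.76 and 0.38 (Myh1), -0.79 and 0.47 (Myh2), -1.64 and 0.90 (Myh4), -0.018 and 0.56 (Mylpf), -0.35 and 0.35 (Myl1), -0.53 and 0.28 (Acta1), and -0.18 and 0.34 (Actc1). It was -0.32 and 0.45 (Tnnt3), -0.18 and 0.51 (Tnnc2), -0.27 and 0.52 (Tnni2), -0.43 and 0.25 (Actn2), -0.24 and 0.76 (Actn3), -0.48 and 0.42 (Ttn), -0.50 and 0.56 (Neb), and -0.60 and 0.56 (Myoz1). It was -0.72 and 0.47 (Casq1), -0.80 and 0.43 (Atp2a1), -1.14 and 1.54 (Pvalb), -0.46 and 0.54 (Ckm), -0.24 and 0.55 (Myf6), and -0.16 and 0.20 (Mymk). Without wild type 20 and without wild type 15 it was -0.44 and 0.21 (Des), -0.41 and 0.22 (Cacna1s), -0.61 and 0.38 (Ryr1), -0.041 and 0.30 (Pax7), and -0.16 and 0.25 (Myod1). Under the 7 other settings 35 genes kept their direction, and Myl1 turned to -0.00086 with upper quartile scaling. No paired analysis was possible because the genotypes share no replicate code. Depth per gene is unknown, and low genes such as Pvalb and Myh4 are the least certain.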

Other observations

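At the neuromuscular junction the fetal receptor subunit was above the adult one, at a mean of 221 per kb for Chrng and 1.55 per kb for Chrne. Chrng, the fetal subunit of the acetylcholine receptor, was at 779, 490, 670 and 516 normalized counts (wild type 15, wild type 20, mutant 18, mutant 14). Chrne, the adult subunit that replaces it, was at 2.09, 0.987, 2.86 and 4.06. The shared subunits Chrna1 and Chrnb1 were at 628, 543, 817 and 622 and at 907, 741, 904 and 712. Of 11 such genes 0 passed the genotype test (limma), 5 were higher and 6 lower in mutant, and mutant 14 was the lowest library for 2 of them. Chrne was named after its values were seen.

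Per kb, the other striated heavy chains Myh7b and Myh13 had means of 33.7 and 3.03. Myh7b, a slow-type chain, was at 266, 144, 198 and 223. Myh13, the extraocular muscle chain, was at 27.3, 17.8, 16.2 and 12.2, lower in both mutant libraries than in both wild-type libraries, without passing (limma, unadjusted p = 0.228). Tendon markers did not follow the muscle order: the 6 markers summed to 8620, 9379, 7871 and 7609, lower in both mutant libraries. All 6 had a log2 fold change below 0, with a median of -0.21, and 0 passed (limma). In 3 of them, Scx, Thbs4 and Fmod, both mutant libraries lay below both wild-type ones. The genotypes failed to overlap in either direction in 27.4% of all genes.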
